A study of Mus musculus with 12 samples.

Results

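The 7 transcripts described here are putative noncoding RNAs of mouse kidney, ncRNA_aligned_943, ncRNA_aligned_967, ncRNA_aligned_1008, ncRNA_aligned_7825, ncRNA_aligned_3312, ncRNA_aligned_858 and ncRNA_aligned_1007. They were chosen among transcripts with a database match for a large rise in wild-type (WT) kidneys after ureteral obstruction, so they were selected on the read counts of the WT obstructed and WT normal libraries, out of 42452 transcripts listed in all libraries and 10852 with a match. The fold change between those groups is therefore a description, and so is every comparison that uses either of them.

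RNA was sequenced from C57BL/6J kidneys, with 2 libraries in each of 6 groups. WT mice and mice lacking Smad3 (KO) were each studied as normal kidneys, as kidneys on day 5 after unilateral ureteral obstruction (UUO), and in anti-GBM glomerulonephritis at day 10. For UUO the left ureter was tied off in groups of 8 mice of both genders. For anti-GBM disease mice first received sheep IgG in Freund's complete adjuvant and, 5 days later, sheep globulin against mouse glomerular basement membrane at 60 μg per g of body weight. The protocol names sham-operated mice as the obstruction control, whereas the libraries used here as controls are labelled normal. The titles give each library its own identifier, and no other label says whether the 2 libraries of a group are separate animals, so p-values measure the spread between these libraries.

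Smad3 is an intracellular transducer of TGF-β, a cytokine known for driving fibrosis. Obstruction of a ureter is a standard model of tubular injury, interstitial inflammation and fibrosis, and antibodies against the glomerular basement membrane injure the filtering units of the kidney. Long noncoding RNAs are transcripts with no recognised protein product, and the functions of most are unknown. No function is assigned here to any of the 7. Levels are CPM, reads scaled to a common library total, after TMM scaling, a correction of library totals for composition. In whole kidney RNA, fewer cells that make a transcript and less of it per cell cannot be told apart.

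The libraries held 4595261 to 7342937 uniquely mapped reads each. In 3 of them, WT UUO 1, KO UUO 1 and KO anti-GBM 1, reads lay on a narrower stretch of the transcripts than in the other libraries. The median ratio of observed coverage to that of randomly placed reads was 0.447, 0.285 and 0.338 there, against 0.636 to 0.911 elsewhere. A single transcript, ncRNA_aligned_3554, took 1.95% to 3.68% of the reads in these 3 narrowly covered libraries and 16.95% to 35.7% in the others. For ncRNA_aligned_7824 the shares were 15.7% to 36.4% and 1.70% to 6.90%. Smad3 itself and other protein-coding genes were not analysed here, so the genotype of the libraries rests on their labels.

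The 7 transcripts were 1228 to 3466 bases long, with a median of 2565 against 2080 for all matched transcripts. Of the 7, 5 matched full-length mouse cDNAs of the FANTOM collection, which was true of 59.8% of all matched transcripts. ncRNA_aligned_1008 matched AK008079, ncRNA_aligned_7825 matched AK080205, ncRNA_aligned_3312 matched AK089314, ncRNA_aligned_858 matched AK080028 and ncRNA_aligned_1007 matched AK029805. ncRNA_aligned_943, 2643 bases long, matched a conserved region predicted by EvoFold to form an RNA structure. ncRNA_aligned_967 matched a mouse lncRNA entry and was the only one of the 7 with an RFAM model, MIR821. Genome positions and sequences of the 7 were not analysed here.

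WT normal kidneys had the lowest mean level of each of the 7, and 6 were highest in WT UUO. The exception was ncRNA_aligned_1008, which was highest in anti-GBM kidneys. The log2 fold changes of WT UUO over WT normal ran from 5.49 to 7.32, with a median of 6.74 against 0.49 for all 24816 transcripts tested. Every WT UUO library lay above both WT normal libraries for all 7, as it did for 31% of transcripts tested. All 7 also passed the filter on low counts, which they could do through WT UUO alone.

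The choice had an edge. Matched transcripts called higher in this comparison (edgeR adjusted p under 0.05, 0.681% of all transcripts tested) were ranked by fold change. Places 4, 5, 6, 7, 11, 13 and 14 were those of the 7. The calls use the libraries that chose the members, so they only set this list and are no test of the 7. The last of them, ncRNA_aligned_1007, stood at 5.49 ± 0.99 (SE), and the next, ncRNA_aligned_1133, at 5.49 ± 1.23. Transcripts at places 1 to 3, 8 to 10 and 12 were not chosen, and of these ncRNA_aligned_2317 had the highest mean level in WT UUO, 164.6 CPM.

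**Figure D1:**
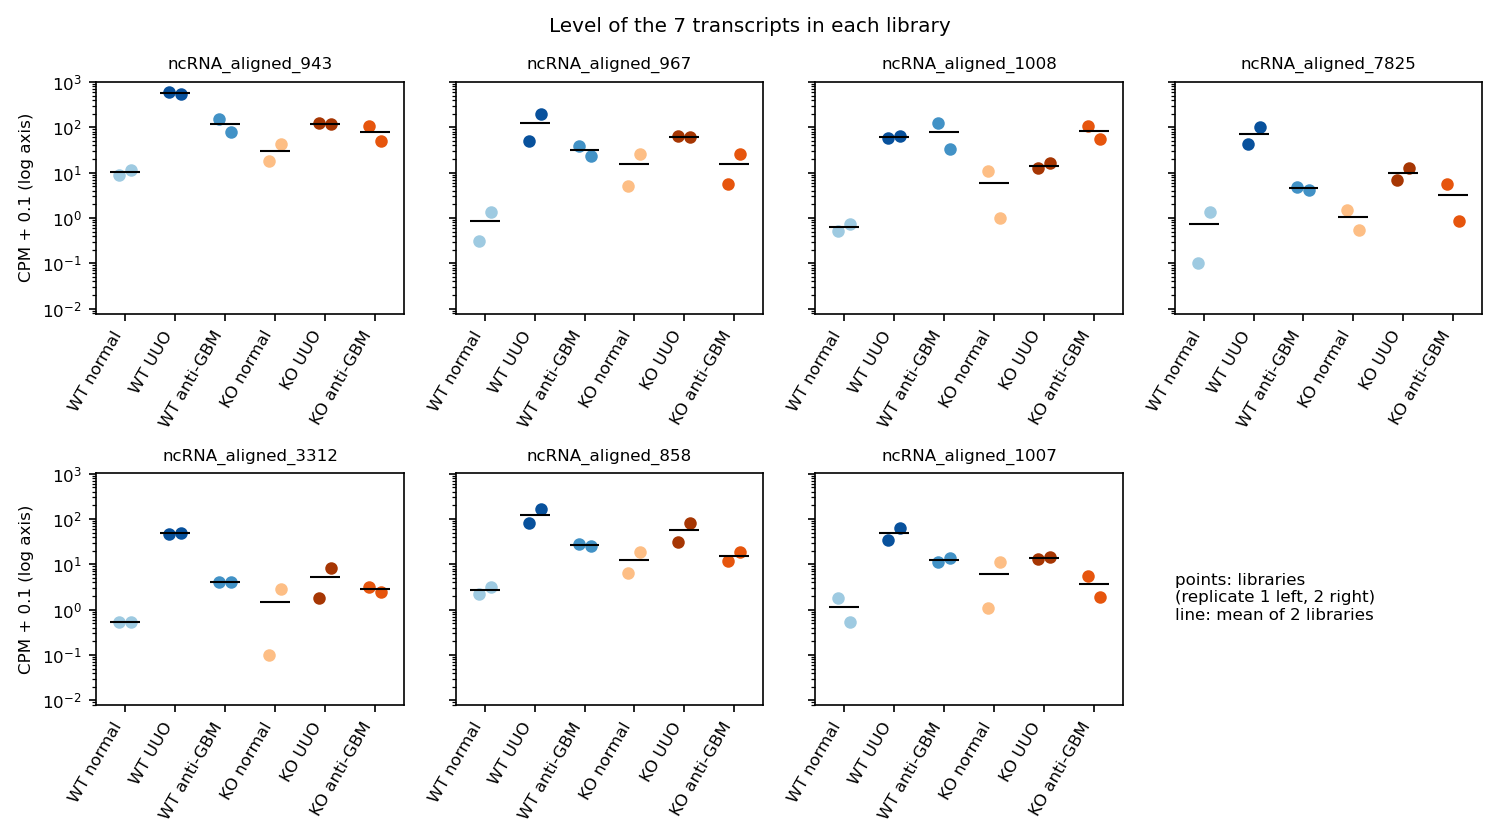
Level of each of the 7 transcripts in every library, as CPM plus 0.1 on a log axis, by group; points are libraries, replicate 1 left and replicate 2 right, and lines are means of 2 libraries. WT UUO is the highest group for 6 of the 7, and ncRNA_aligned_1008 is as high in anti-GBM as in obstructed WT kidneys.

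By mean level over all libraries the most abundant of the 7 was ncRNA_aligned_943, although ncRNA_aligned_1008 was higher in KO anti-GBM. Its level was 8.93 and 11.4 CPM in WT normal, 602 and 546.5 in WT UUO, and 156.3 and 79.8 in WT anti-GBM. In KO kidneys it was 18.4 and 42.6 CPM in normal, 123.3 and 119.9 in UUO, and 106.2 and 49.3 in anti-GBM. The WT UUO libraries stood above all the others without overlap, and KO UUO overlapped WT anti-GBM. WT UUO was 55.8 times WT normal by pooled reads (95% exact interval 45.6 to 69.0, counting error only). Per length ncRNA_aligned_943 was the highest of the 7 in each WT group, at 336.4 ± 1.98 RPKM in WT UUO (SD, n = 2) and 2.89 ± 0.44 RPKM in WT normal. In KO groups it came next after ncRNA_aligned_967 in normal and UUO, and after ncRNA_aligned_1008 in anti-GBM.

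ncRNA_aligned_858, of 2565 bases, followed the same order of groups. Its level was 2.13 and 3.01 CPM in WT normal, 82.0 and 164.2 in WT UUO, and 27.3 and 25.4 in WT anti-GBM. Values in KO kidneys were 6.45 and 18.5 CPM in normal, 31.4 and 80.0 in UUO, and 11.8 and 18.4 in anti-GBM. WT UUO was the highest group, but its lower library (81.96 CPM) was close to the higher KO UUO library (80.0 CPM). Pooled reads gave a 52.4-fold excess of WT UUO over WT normal (95% exact interval 35.2 to 82.0, counting error only).

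In the fit of all 12 libraries ncRNA_aligned_967 had the largest log2 fold change in WT, 7.32 ± 1.21 (SE), but this order rests on few WT normal reads. Without 1 library the value ran from 6.05 to 9.05, and that of ncRNA_aligned_7825 reached 11.94 without WT normal 2, where no WT normal read of it remained. ncRNA_aligned_967 also had the largest disagreement between the WT UUO libraries. WT kidneys gave 0.213 and 1.29 CPM in normal, 51.2 and 193.8 in UUO, and 38.4 and 23.2 in anti-GBM. KO kidneys gave 5.04 and 25.7 CPM in normal, 63.4 and 61.0 in UUO, and 5.63 and 26.0 in anti-GBM. WT UUO 2 was 3.79 times WT UUO 1, and both KO UUO libraries fell between them, so obstructed WT and KO kidneys overlapped for this transcript alone. WT normal rested on 1 and 6 reads, and the excess of WT UUO was 190.2-fold by pooled reads (95% exact interval 92.2 to 473.4, counting error only).

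ncRNA_aligned_1007, of 1340 bases, was at 1.70 and 0.431 CPM in WT normal, 33.9 and 63.9 in WT UUO, and 11.2 and 13.5 in WT anti-GBM. In KO it was at 1.01 and 10.8 CPM in normal, 12.9 and 14.1 in UUO, and 5.37 and 1.76 in anti-GBM. It was the only member lower on average in KO anti-GBM than in KO normal, and those 4 libraries overlapped.

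By group means, ncRNA_aligned_7825 and ncRNA_aligned_3312 had the widest gap between WT UUO and the next group. By single libraries the gap of ncRNA_aligned_7825, 42.8 against 12.8 CPM, was no wider than that of ncRNA_aligned_943, 546.5 against 156.3. ncRNA_aligned_7825 was at 0 and 1.29 CPM in WT normal, 42.8 and 101.9 in WT UUO, and 4.85 and 4.11 in WT anti-GBM. KO libraries held 1.41 and 0.451 CPM in normal, 6.87 and 12.8 in UUO, and 5.63 and 0.782 in anti-GBM. The library at 0 allows up to 0.638 CPM (3 reads). Mean KO UUO was 13.6% of mean WT UUO.

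ncRNA_aligned_3312 was at 0.425 and 0.431 CPM in WT normal, 45.6 and 49.9 in WT UUO, and 4.0 and 3.89 in WT anti-GBM. KO kidneys held 0 and 2.71 CPM in normal, 1.69 and 8.32 in UUO, and 3.07 and 2.35 in anti-GBM, where the 0 allows up to 0.605 CPM (3 reads). Both WT UUO libraries were over 5 times any other library, and mean KO UUO was 10.5% of mean WT UUO, the lowest share among the 7. It shares its cDNA match with ncRNA_aligned_3313 and ncRNA_aligned_3314, so reads of 1 locus may be divided among these entries. ncRNA_aligned_3314 had a similar order in the WT groups, at 5.31 and 1.51 CPM in WT normal, 79.7 and 169.9 in WT UUO, and 9.45 and 13.4 in WT anti-GBM. The KO normal libraries differed in direction between these entries. KO normal against WT normal was -0.41 ± 0.66 (SE) for ncRNA_aligned_3314 and -1.255 ± 1.356 for ncRNA_aligned_3313, against 1.59 ± 1.17 for ncRNA_aligned_3312. KO minus WT obstruction response was -1.81 for ncRNA_aligned_3314 and -4.86 for ncRNA_aligned_3312, on the log2 scale. ncRNA_aligned_967 likewise shares its match with ncRNA_aligned_2456, which held 0.296 and 25.9 CPM in WT UUO and no read in WT normal.

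ncRNA_aligned_1008 departed from the other 6. Its level was 0.425 and 0.646 CPM in WT normal, 58.4 and 66.0 in WT UUO, and 126.3 and 33.0 in WT anti-GBM. KO values were 10.7 and 0.902 CPM in normal, 12.6 and 16.0 in UUO, and 107.5 and 56.5 in anti-GBM. The WT UUO libraries lay between the WT anti-GBM libraries, and all 4 anti-GBM libraries exceeded all KO UUO libraries. WT UUO minus WT anti-GBM was -0.36 ± 0.76 on the log2 scale (SE), the only negative value among the 7, and without WT anti-GBM 1 or with other scalings this small difference can be positive, up to 0.85. WT normal held 2 and 3 reads of it.

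The first tested question was whether the 7 also rose with obstruction in kidneys without Smad3. Neither of the groups compared holds a library that chose them. The filter on low counts and the estimate of spread used all libraries, however, so the choosing libraries enter the p-values. None of the 7 was called (0.0121% of all transcripts tested were called higher, edgeR quasi-likelihood test, Benjamini-Hochberg adjusted p under 0.05). In simulated counts this test called 8% of changes of 2 on the log2 scale and 73% of changes of 4. Those counts held equal group means apart from the changed transcripts, so they do not copy the few KO normal reads of some members. The lack of a call therefore does not exclude a rise of about 2. All 7 fold changes were above 0, from 1.20 to 3.35 on the log2 scale, with a median of 2.00 against 0.00 for all transcripts tested, of which 50.2% were above 0. Their sizes depended on single libraries: without 1 library the difference ran from 1.28 to 3.62 for ncRNA_aligned_967, from 0.42 to 3.96 for ncRNA_aligned_1008 and from 0.32 to 3.72 for ncRNA_aligned_1007, each end set by leaving out KO normal 1 or KO normal 2. That of ncRNA_aligned_3312 was 0.35 without KO UUO 2 and 8.08 without KO normal 2, where no KO normal read remained. For 4 of the 7 the unadjusted p was under 0.05, as for 5.97% of all. Both KO UUO libraries exceeded both KO normal libraries for 6 of the 7, as for 16.7% of all transcripts tested; ncRNA_aligned_3312 was the exception. Obstruction gave log2 differences in KO of 2.00 ± 0.51 (SE) for ncRNA_aligned_943, with adjusted p = 0.249 by edgeR, and of 2.16 ± 0.61 for ncRNA_aligned_858, with adjusted p = 0.378. The largest, 3.35 ± 1.00, was that of ncRNA_aligned_7825, with edgeR adjusted p = 0.505. The other 4 had adjusted p from 0.823 to 0.856.

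This outcome depended on the tool, the scaling and the libraries and transcripts entered. DESeq2 called ncRNA_aligned_943 (adjusted p = 0.0214), ncRNA_aligned_858 (0.0379) and ncRNA_aligned_7825 (0.0406), all higher in KO UUO, as were 0.533% of the transcripts it tested. Without the narrowly covered libraries, KO UUO 2 was the only KO UUO library left. The log2 differences of the same 3 were then 1.95, 2.66 and 3.71. Scaled by library size, edgeR called ncRNA_aligned_943 (adjusted p = 0.00623) and ncRNA_aligned_858 (0.0276), and 0.218% of all transcripts higher. Without the filter on low counts it called ncRNA_aligned_7825 (adjusted p = 0.0257), and 0.0919% of all higher. No member was called when edgeR used the size factors of DESeq2 (0.00806% of all transcripts called in either direction). The same held for totals without ncRNA_aligned_3554 and ncRNA_aligned_7824 (0.0121%). With the compared groups alone no transcript was called, whether the filter was kept or recomputed. With 1 library left out and the 24816 tested transcripts kept, no member was called in any of 12 fits. When the filter on low counts was instead recomputed in each of those fits, at least 1 member was called in 9 of 12, ncRNA_aligned_7825 in 7 and ncRNA_aligned_943 in 6, and 0.114% to 3.74% of all transcripts were called in either direction.

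**Figure D2:**
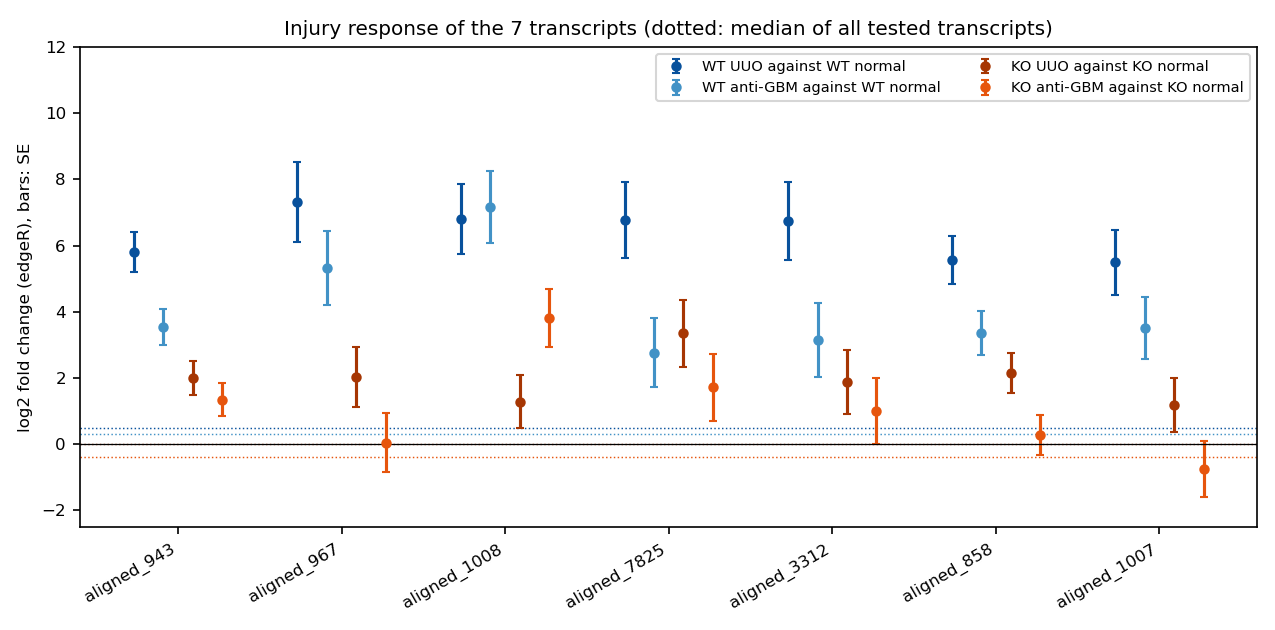
Log2 fold change of each transcript for both injuries in WT and KO kidneys, with bars for the SE from edgeR and dotted lines for the median of all tested transcripts in each comparison. WT UUO values run from 5.49 to 7.32 and KO UUO values from 1.20 to 3.35; the WT comparisons use the libraries that chose the transcripts, and the 2 comparisons of a genotype share its normal libraries.

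Set side by side, the obstruction response was smaller in KO than in WT for all 7. KO minus WT response ran from -5.52 for ncRNA_aligned_1008 to -3.41 for ncRNA_aligned_858 on the log2 scale, with a median of -4.30 against -0.25 for all transcripts. Both ends of the response differed. KO UUO was below WT UUO in mean for all 7, by -0.98 to -3.27 on the log2 scale, and without overlap for 6, against 19.4% of all transcripts tested. KO normal was above WT normal in mean for all 7, by 0.54 to 4.32, and without overlap for 4, against 19.7% of all transcripts tested. Leaving out 1 library turned the direction of some of these. KO UUO against WT UUO became 0.31 for ncRNA_aligned_967 without WT UUO 2. KO normal against WT normal became -0.50 for ncRNA_aligned_7825 without KO normal 1 and was also below 0 without WT normal 1. Without KO normal 2 it became -0.081 for ncRNA_aligned_1007 and -4.61 for ncRNA_aligned_3312, the latter a fitted value against a library with no read. Since the members were chosen for high WT UUO and low WT normal values, these differences were not tested. Leaving out single libraries turned the KO minus WT response of ncRNA_aligned_3312 positive, at 1.34 without KO normal 2, where its only remaining KO normal library held no read and the fitted value depends on the prior count.

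By the median ratio over the members, the KO normal libraries differed from each other more than the 2 libraries of any other group. The same ratio over all transcripts is not given here. For the 6 members with reads in both, the higher library was 2.32 to 11.9 times the lower, with a median of 4.12, against medians of 1.21 to 2.16 in the other groups. KO normal 2 was higher for 5 members, among them ncRNA_aligned_1007 (10.7 times, 48 against 5 reads) and ncRNA_aligned_967 (5.10 times, 114 against 25 reads). KO normal 1 was higher for ncRNA_aligned_1008 (11.9 times, 53 against 4 reads) and ncRNA_aligned_7825 (3.13 times, 7 against 2 reads). Several of these ratios therefore rest on few reads. Each KO comparison with normal kidneys carries this spread.

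The files also hold entries that match genes of blood and immune cells or elements of them. Of 7 names looked up, 3 were found, in 4 transcripts, and the other 4 are not listed. Their summed level was 4.25 and 3.88 CPM in WT normal, 47.3 and 67.3 in WT UUO, and 12.7 and 13.3 in WT anti-GBM. It was 1.82 and 16.5 CPM in KO normal, 14.8 and 17.8 in KO UUO, and 8.70 and 8.61 in KO anti-GBM. Over the entries together the sum was higher in both WT UUO libraries than in any other, and most of it came from ncRNA_aligned_3717, which matches an element of Spi1, a transcription factor gene of myeloid and B cells. ncRNA_aligned_3717 also stood 26.8 times apart between the KO normal libraries, at 0.605 and 16.2 CPM, from 3 and 72 reads. This was the same way as 5 of the 7 members, but the share of all transcripts higher in KO normal 2 is not given here. ncRNA_aligned_8024, the Mir155 entry, went the other way there, at 1.21 and 0.226 CPM, and held 0.850 and 0.431 CPM in WT normal against 1.04 and 8.84 in WT UUO. ncRNA_aligned_11387, matched to an element of the cytokine gene for G-CSF, held reads in the WT UUO libraries alone, 12 and 94, and ncRNA_aligned_11388, with the same match, held 3 reads in all. The part of such cells in the levels of the 7 was not tested. The tubule precursor mir-200b, 1 of 8 tubule names found, lay between 14.6 and 51.9 CPM in all libraries, and the liver, muscle and brain names were not listed. The renin element entry, ncRNA_aligned_2307, held 219.1 and 143.4 CPM in WT normal, 83.0 and 125.5 in WT UUO, and 5.09 and 20.4 in WT anti-GBM. In KO it held 129.8 and 518.1 CPM in normal, 309.3 and 377.4 in UUO, and 558.3 and 1229 in anti-GBM.

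The next comparison was anti-GBM disease against normal in KO. Of the 7, 6 fold changes were above 0 and none was called (0.0484% of all transcripts tested were called higher by edgeR). The median was 1.01 against -0.37 for all transcripts, and 2 of the 7 lay wholly above KO normal, as did 11.7% of all. ncRNA_aligned_1008 had the largest difference, 3.81 ± 0.87 (SE) on the log2 scale, with adjusted p = 0.301 by edgeR. It passed with DESeq2 (adjusted p = 0.000804), which called 0.541% of its transcripts higher, and with edgeR and no filter on low counts (2.07e-05), which called 0.12% higher. It also passed in 11 of 12 fits that left out 1 library and recomputed the filter, where 0.0779% to 1.49% of transcripts were called in either direction. With the tested transcripts kept, it passed in 0 of 12 such fits. ncRNA_aligned_943 differed by 1.35 ± 0.50, with edgeR adjusted p = 0.542. The remaining 5 ran from -0.74 for ncRNA_aligned_1007 to 1.72 for ncRNA_aligned_7825, and the sign of 5 members changed when a single library was left out.

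In WT, anti-GBM disease also went with higher levels of all 7, by 2.76 to 7.17 on the log2 scale, with both libraries above both WT normal libraries for each (32.7% of all transcripts tested did so). These values share WT normal with the choice of the members and are given as a description. ncRNA_aligned_1008 was highest, at 7.17 ± 1.08 (SE), and ncRNA_aligned_7825 lowest, at 2.76 ± 1.04. This order too rests on few reads, since ncRNA_aligned_7825 was at 7.94 without WT normal 2, where no WT normal read of it remained.

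KO UUO was then compared directly with KO anti-GBM. None of the 7 was called in either direction (0.0242% of all transcripts tested, edgeR). The levels of 5 members were higher in both KO UUO libraries, against 22.3% of all, and 1, ncRNA_aligned_1008, was lower in both, against 11.4%. Its difference was -2.52 ± 0.81 (SE), with edgeR adjusted p = 0.269. Without the filter on low counts its adjusted p was 0.0156, in a fit that called 0.514% of transcripts, and with DESeq2, which called 2.7% of its transcripts and none of the 7, it was 0.0558. It was called in 10 of 12 fits that left out 1 library and recomputed the filter, where 0.373% to 2.95% of transcripts were called, and in 0 of 12 with the tested transcripts kept. The other differences ran from 0.65 for ncRNA_aligned_943 to 1.97 for ncRNA_aligned_967, with adjusted p from 0.242 to 0.694. Of these, ncRNA_aligned_858 passed with edgeR scaled by library size (adjusted p = 0.0283), where 0.709% of transcripts were called. Without the narrowly covered libraries a single library remained in each of these groups. The difference was then 3.97 for ncRNA_aligned_7825 and 2.09 for ncRNA_aligned_858. In the fit of all 12 libraries the median of the 7 differences was 1.64, and that of all transcripts 0.43.

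Between genotypes in anti-GBM disease, none of the 7 was called (0.0201% of all transcripts tested, edgeR), and DESeq2, which called 3.17% of its transcripts, called none of them. ncRNA_aligned_7825 passed in 1 alternative, edgeR without the narrowly covered libraries and with the filter recomputed, at -2.47 and adjusted p = 0.0483, where 7.38% of transcripts were called. The median difference of KO minus WT was -0.60, close to the -0.61 of all transcripts. ncRNA_aligned_1007 had the largest, -1.80 ± 0.84 (SE), with adjusted p = 0.329 and a 95% interval of -3.54 to -0.06; at an unadjusted p under 0.05 it was 1 of 7, against 14.8% of all transcripts. For ncRNA_aligned_1008 the difference was 0.04 ± 0.76, with a 95% interval of -1.58 to 1.66, so a change of up to about that size in either direction was not excluded by these libraries.

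**Figure D3:**
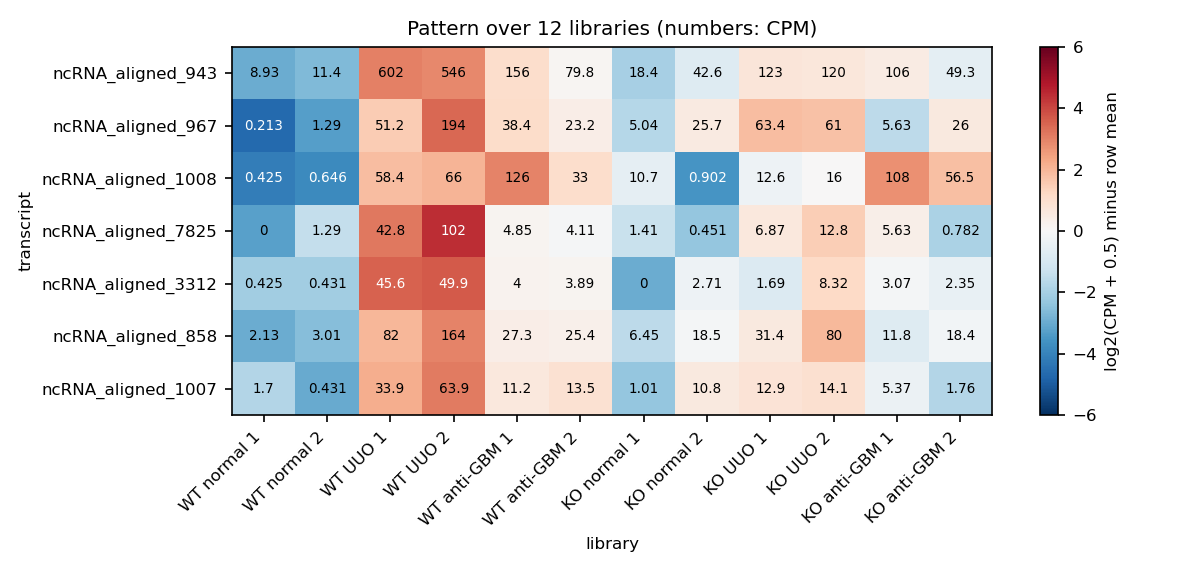
Pattern of the 7 transcripts over the 12 libraries, coloured by log2 of CPM plus 0.5 minus the mean of the row, with the CPM written in each cell. The WT UUO columns are high in all rows; ncRNA_aligned_1008 is also high in the anti-GBM columns, and the KO normal columns differ from each other.

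The likeness of patterns was measured as the root mean square difference of log2 CPM over the 12 libraries, each transcript centred on its own mean, among 4304 transcripts with a mean of 10 CPM or more. ncRNA_aligned_943 and ncRNA_aligned_858 were the closest pair within the 7, at 0.68. ncRNA_aligned_1008 was the most distant, at 1.68 to 2.27 from the others. Outside the 7, the nearest to ncRNA_aligned_858 was ncRNA_aligned_3458, at 0.43, which was also the nearest to ncRNA_aligned_3312, at 0.80. The nearest to ncRNA_aligned_943, at 0.65, and to ncRNA_aligned_1007, at 0.75, was ncRNA_aligned_1883, which held up to 644.4 CPM in WT UUO and up to 28.9 in WT normal. ncRNA_aligned_1008 was nearest to ncRNA_aligned_2280, at 1.31, and medians over all candidates were 2.04 to 2.78. All 12 libraries, including those that chose the members, enter this measure.

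Reads covered most of each transcript where it was abundant, except in part of the libraries. In WT UUO 2 the covered share was 76.4% for ncRNA_aligned_1008 and 98.4% to 99.8% for the other 6. In WT UUO 1, at 229 to 4069 reads, it was 61.7% for ncRNA_aligned_1008, 61.8% for ncRNA_aligned_858 and 67.3% for ncRNA_aligned_7825, and 90.9% to 97.2% for the other 4. KO UUO 1 covered 11.7% of ncRNA_aligned_7825 with 65 reads, and KO UUO 2 covered 47.0% with 77 reads. ncRNA_aligned_1008 fell below the median of transcripts of similar length and reads in 8 of the 9 libraries with 20 or more reads of it, while ncRNA_aligned_1007 lay above that median in 8 of 8.

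**Figure D4:**
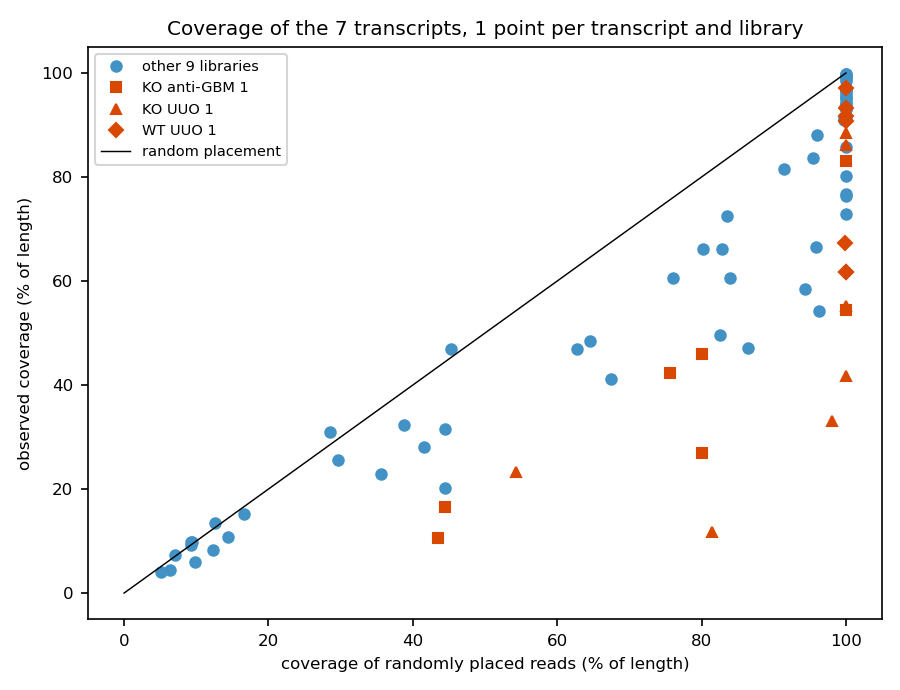
Observed coverage of the 7 transcripts against the coverage that the same number of randomly placed reads would give, both in percent of the length, with 1 point per transcript and library and a line for equality. Points of WT UUO 1, KO UUO 1 and KO anti-GBM 1 often lie far below the line, for example 11.7% for ncRNA_aligned_7825 in KO UUO 1.

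Of 15 known noncoding RNAs looked up by name, 3 were found. The long Neat1 entry, ncRNA_aligned_3989, the RNA scaffold of nuclear paraspeckles, was at 81.0 and 159.1 CPM in WT normal and 213.6 and 531.9 in WT UUO, and highest in WT anti-GBM, at 539 and 1539. Its log2 difference in KO UUO was 0.91 ± 0.73 (SE), with edgeR adjusted p = 0.887. The other Neat1 entry, ncRNA_aligned_3988, and the H19 and 7SK entries had under 3 CPM in every library.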

How the data were processed

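The authors deposited, for each of 12 libraries, a table of putative noncoding transcripts with uniquely mapped read counts, RPKM, the percent of the length covered and the mean coverage depth, per the file headers. Reads were aligned with Bowtie 0.12.7 and the build was mm9, per the submitters' processing notes; how transcripts were defined, how reads were assigned and any strand setting are not given in the sources used here. Antisense or overlapping transcripts may therefore share reads. Per the labels' protocols, ribosomal RNA was removed and RNA over 150 bp was taken from a gel. The deposited RPKM equals counts per length and listed total. A transcript absent from a library's table was taken as 0, since every listed one has at least 1 read.

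Counts were tested with edgeR 4.0.16 (R 4.3.3): TMM scaling, filterByExpr by group (24816 of 42452 transcripts kept), 1 mean per group over all 12 libraries, robust quasi-likelihood F tests and Benjamini-Hochberg adjustment over all tested transcripts, at 0.05. Of 10 contrasts, the 4 without WT UUO and WT normal were tested for the members. Calls in WT UUO against WT normal served only to list the transcripts around the choice. The smallest p that exact permutation of 2 against 2 libraries allows is 0.3333; the calls depend on the spread shared by all groups. Alternatives used DESeq2 1.42.0 or other scalings, filters and libraries. In fits with fewer libraries the tested transcripts were kept as in the fit of all 12; this was settled after fits with a recomputed filter had also been seen, and both are given. The test of KO UUO against KO normal was also run on simulated counts with 200 changed transcripts. It called 8% of log2 changes of 2 and 73% of changes of 4, with 7 false calls. Exact intervals and the floor of 3 reads cover counting error only. Observed coverage was divided by that expected of randomly placed reads of 90 bases. The members and lists were chosen with earlier results of these data known. The named transcripts are the 7 members, the nearest 2 patterns of each, listed known RNAs and marker entries; entries sharing a match, the transcripts at the edge of the choice and the 2 dominant transcripts were named after their values were seen.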

Additional observations from a re-analysis of the deposited data

How the results depend on the processing

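No paired analysis was possible because replicate numbers follow accession order and pair no libraries. The share of tested transcripts called was small and unstable: 0.0121% for KO UUO against KO normal, 0.0524% for KO anti-GBM against KO normal, 0.0242% for KO UUO against KO anti-GBM and 0.0201% for KO against WT in anti-GBM disease. In the same order it became 0.250%, 0.198%, 0.514% and 0.431% without the filter on low counts, and 1.00%, 1.04%, 2.70% and 3.17% with DESeq2. The compared groups alone gave 0%, 0.247%, 0.122% and 1.25%, and leaving out the 3 narrowly covered libraries gave 0.851%, 0.948%, 2.73% and 7.04%. Leaving out those 3 left a single library in each of the WT UUO, KO UUO and KO anti-GBM groups. Scaling by library size gave 0.234% for KO UUO against KO normal, 0.709% for KO UUO against KO anti-GBM and 0.838% for KO against WT in anti-GBM disease. That last share was 0.121% when edgeR used the size factors of DESeq2 and 0.0766% with totals that leave out both dominant transcripts. Without single libraries the shares ran from 0.00403% to 0.742%, 0% to 0.0806%, 0% to 0.371% and 0% to 0.379%.

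An alternative added after seeing the data recomputed the filter in each fit with fewer libraries; it was run first, and the kept set of transcripts was adopted with both outcomes known. It tested 27730 to 35973 transcripts in fits without 1 or 3 libraries. It called 0.114% to 3.74%, 0.0779% to 1.49%, 0.373% to 2.95% and 0.12% to 1.74% without single libraries, 1.16%, 1.28%, 3.0% and 7.38% without the 3 narrow ones, and 0% in all 4 comparisons with the compared groups alone. Whether members were called without single libraries differed between both treatments of the filter. The cause was not tested.

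The 7 log2 differences of KO UUO from KO normal stayed above 0 in every alternative run, at sizes from 0.21 to 8.12 without single libraries with either treatment of the filter. Other differences changed sign. In KO anti-GBM against KO normal, ncRNA_aligned_7825 was at -0.26 without the narrow libraries. Over the fits without single libraries, with either treatment of the filter, this comparison ran from -0.27 to 2.75 for ncRNA_aligned_7825, from -1.5 to 1.65 for ncRNA_aligned_967, from -0.31 to 1.23 for ncRNA_aligned_858, from -1.73 to 1.79 for ncRNA_aligned_1007 and from -0.033 to 7.22 for ncRNA_aligned_3312. The highest of these leaves a KO normal library with no read and depends on the prior count. ncRNA_aligned_3312 ran from -0.78 to 1.67 in KO UUO against KO anti-GBM. Between genotypes in anti-GBM disease, ncRNA_aligned_7825 ran from -2.49 to 0.33 and ncRNA_aligned_1008 from -0.69 to 1.29. ncRNA_aligned_1008 there was also at -0.65 when scaled by library size, -0.040 with no filter, and -0.48 and -0.47 without the narrow libraries. Scaling moved the median log2 difference of all transcripts in WT UUO against WT normal from 0.49 to 0.76 with the size factors of DESeq2, and to 1.53 with none but library size. Depth limits the folds: apart from ncRNA_aligned_943 and ncRNA_aligned_858, members had 0 to 8 reads in a WT normal library.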
